A study of Mus musculus with 4 samples.

Results

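Small nucleolar RNA (snoRNA) host genes are genes whose introns carry snoRNAs. The 10 noncoding hosts described here are Gas5, Snhg1, Snhg3, Snhg5, Snhg6, Snhg8, Snhg11, Snhg12, Snhg14 and Zfas1. They were picked by symbol from 49997 gene symbols in the deposited tables, and all 10 have a row in each table. The rule uses no measured value, but the list was chosen with earlier results of these data known. A total of 4 libraries of mouse total RNA was compared, 2 from proliferating iMOP cells and 2 from iMOP-derived neurons, all labelled wild-type. iMOP cells are immortalized multipotent otic progenitors, a line of inner ear progenitor cells. Per the labels' protocols, the proliferating cells were kept in DMEM/F12 with B27, carbenicillin and bFGF (20 ng/ml). Neurons were kept in Neurobasal medium with N21, L-glutamine and 1 µM K03861, which blocks CDK2, a kinase of the cell cycle. Both replicate 2 titles carry the words set 2, and the titles call the replicates biological. Where values of a group are given in pairs, replicate 1 comes before replicate 2.

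A host gene is transcribed and spliced like an mRNA gene, and each snoRNA is released from its intron while the spliced host RNA is often short-lived. C/D box snoRNAs guide methylation of ribosomal RNA and H/ACA box snoRNAs guide its pseudouridylation, so host genes are tied to ribosome production. Many hosts begin with a run of pyrimidines at the start of the transcript, the 5' terminal oligopyrimidine tract also found in ribosomal protein genes, and their spliced RNAs are known targets of nonsense-mediated decay. Gas5 was named for its rise in growth-arrested cells.

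The windows around the RefSeq start sites (GRCm38.p6, which is mm10, the build in the submitters' processing notes) are shown for the 5 members in which TATA lay between 45 and 15 bases before a start. Each window holds 60 bases, the last 15 of them transcribed. Capitals mark TATA and any run of at least 5 pyrimidines (C or T) that began within 5 bases of the start.
Gas5 (chr1:161035121-161035180, plus strand): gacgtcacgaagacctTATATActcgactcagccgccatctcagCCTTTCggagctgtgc
Snhg1 (chr19:8723442-8723501, plus strand): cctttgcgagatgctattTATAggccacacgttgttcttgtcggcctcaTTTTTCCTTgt
Snhg5 (chr9:88522883-88522942, minus strand): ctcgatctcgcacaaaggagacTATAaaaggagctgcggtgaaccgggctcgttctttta
Snhg8 (chr3:123508322-123508381, minus strand): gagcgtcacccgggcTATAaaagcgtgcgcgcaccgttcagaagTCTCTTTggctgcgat
Snhg12 (chr4:132308633-132308692, plus strand): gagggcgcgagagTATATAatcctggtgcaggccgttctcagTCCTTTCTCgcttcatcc
TATA reads the same on both strands, and 6.72% of all 32851 RefSeq start windows held it in that stretch. A pyrimidine run of this kind was found in 20.3% of all windows, read on the transcribed strand, and both features in 1.44%. Windows were matched for 9 of the 10 members, all but Snhg6. Of these, 5 genes had TATA, 5 had the pyrimidine run (Gas5, Snhg1, Snhg3, Snhg8 and Snhg12) and 4 had both. In Gas5 both features lay at one of its pair of RefSeq starts and not at the other. A match describes the letters and is not evidence of a bound factor or of a mapped start.

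The table of RefSeq genes placed 237 snoRNA genes inside the 10 host spans on the same strand, 206 of them in Snhg14 (the strand of 1 of these was not known). The most abundant nested snoRNA of each host that had any counts is printed here, because in 5 of these 6 hosts the nested rows held at least 137.5 counts per host count. The letters are from GENCODE M21 (GRCm38). Capitals mark the C box TGATGA and the D box CTGA in C/D snoRNAs, and the ACA that lies 3 bases before the end of H/ACA snoRNAs. RefSeq draws Snora61 and Snord64 with other bounds than GENCODE, whose coordinates are given.
LOC115487643, Gm26224 in GENCODE, in Gas5 (chr1:161035394-161035473, plus strand): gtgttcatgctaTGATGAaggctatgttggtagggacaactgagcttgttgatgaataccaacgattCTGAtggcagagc
LOC115489081, Gm22744 in GENCODE, in Snhg1 (chr19:8725092-8725156, plus strand): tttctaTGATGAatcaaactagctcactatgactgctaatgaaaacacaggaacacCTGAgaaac
Gm23201, in Zfas1 (chr2:167064998-167065086, plus strand): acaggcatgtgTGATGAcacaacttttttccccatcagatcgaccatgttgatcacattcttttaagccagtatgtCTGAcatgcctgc
Snord64, in Snhg14 (chr7:59978808-59978874, minus strand): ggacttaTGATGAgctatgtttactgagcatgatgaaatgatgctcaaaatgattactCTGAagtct
Snora73a, in Snhg3 (chr4:132352775-132352979, minus strand): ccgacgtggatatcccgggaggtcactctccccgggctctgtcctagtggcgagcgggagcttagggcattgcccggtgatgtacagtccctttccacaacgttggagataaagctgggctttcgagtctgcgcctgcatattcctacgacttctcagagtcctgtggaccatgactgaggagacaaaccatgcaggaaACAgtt
Snora61, in Snhg12 (chr4:132310240-132310369, plus strand): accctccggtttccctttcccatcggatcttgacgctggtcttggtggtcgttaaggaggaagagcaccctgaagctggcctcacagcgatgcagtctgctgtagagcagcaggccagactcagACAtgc

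The total count was 7446361 to 14484011 per library, of which the 18S ribosomal RNA row took 53.3% and 59.4% in the replicate 1 libraries and 75.0% and 76.1% in the replicate 2 libraries. The other rows summed to 2595578 to 3850766 counts. The 10 hosts together had 1360 and 712 counts in proliferating replicates 1 and 2, and 1574 and 1077 in neuron replicates 1 and 2. CPM here is the count scaled to the TMM-adjusted library size. Fewer cells of a kind and less RNA per cell cannot be told apart in such bulk samples. Of the marker genes, the neuronal ones summed to 161.4 and 347.7 CPM in the proliferating libraries and 201.6 and 364.1 CPM in the neuron ones. One by one, 2 of the 10 neuronal markers were higher in both pairs, 1 was lower in both and 7 went opposite ways. Over all tested genes these shares were 28.8%, 25.5% and 45.7%. The proliferation markers summed to 338 and 147.1 CPM against 419.1 and 249.7 CPM, so their sums were higher in the neuron library of each pair. Ccnd1, with the smallest p-value of that list, went the other way in each pair. It had 99 and 464 counts in the proliferating libraries and 61 and 47 in the neuron ones (log2 fold change -2.83). The glial markers summed to 74.0 and 73.6 CPM against 26.1 and 9.15 CPM. The otic markers summed to 76.2 and 109.7 CPM against 69.96 and 32.2 CPM. Of the 3 tested otic markers, Sox9 had 496 and 429 counts in the proliferating libraries and 320 and 41 in the neuron ones. Eya1 had 62 and 27 against 103 and 57, and Sox2 had 362 and 355 against 402 and 216. Pax2 and Pax8 were listed at 0 in all libraries. In edgeR 0 genes of these lists were called: 8 of 8 proliferation, 10 of 10 neuronal, 4 of 9 glial and 3 of 7 otic markers were tested, with median log2 fold changes of 0.30, 0.40, -2.57 and -0.48. With the replicate block 1 of them, the glial gene Gfap, was called, with 181 and 89 counts in the proliferating libraries and 1 and 2 in the neuron ones. How these marker levels bear on the host genes was not tested.

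No host gene was called different between neurons and proliferating cells. In edgeR's quasi-likelihood test across 12783 genes, 0 of the 9 tested hosts had an adjusted p-value under 0.05, and 0 had an unadjusted p-value under 0.05, against 3.43% of all tested genes. Of all tested genes, 0% were called. With the replicate number as a block, 0 hosts were called, and 0 had an unadjusted p-value under 0.05. In that fit 0.0235% of all genes (3) were called, and 6.18% had an unadjusted p-value under 0.05. DESeq2 and limma also called 0 hosts. The adjusted p-value was 0.9998 for each of the 9 hosts. Their median log2 fold change, neuron minus proliferating, was -0.03, with 4 above 0 and 5 below, and the median of all tested genes was 0.02. Snhg11 did not pass the filter on low counts.

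**Figure D1:**
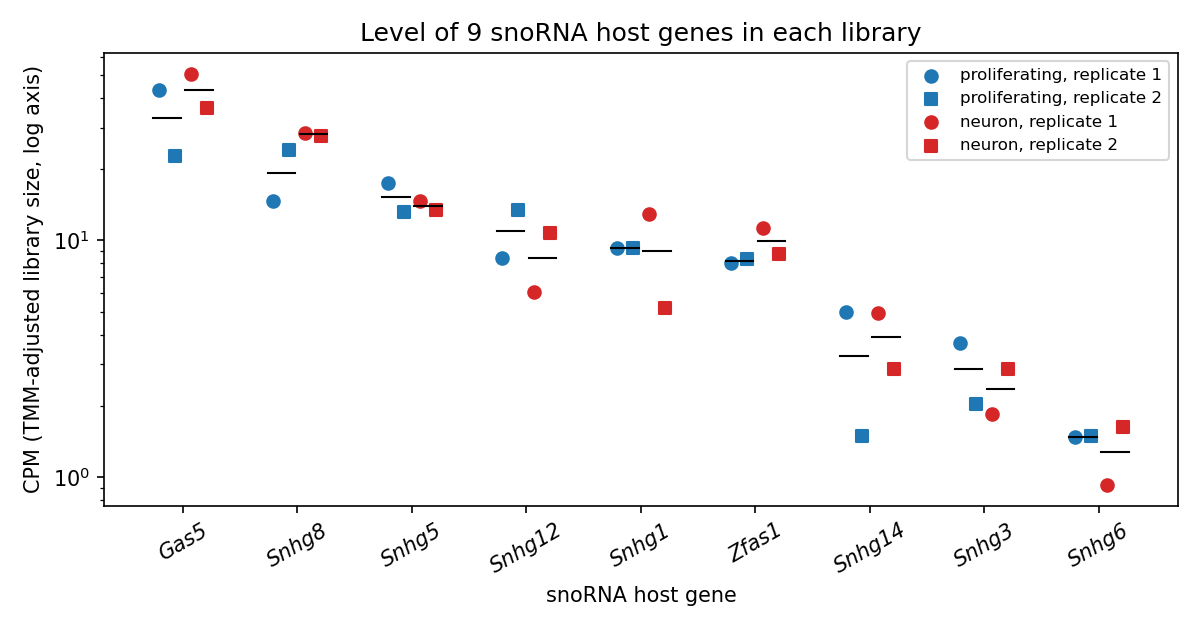
Level of each tested snoRNA host gene in each library, as CPM on a log axis. Points are libraries (blue proliferating, red neuron, circles replicate 1, squares replicate 2) and black lines are group means; the groups are apart for Snhg8 and Zfas1 and overlap for the other 7 hosts.

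Among the hosts of C/D box snoRNAs, Gas5 had the most counts. Its level was 43.4 and 22.7 CPM in proliferating replicates 1 and 2 and 50.8 and 36.2 CPM in neuron replicates 1 and 2. The neuron library was the higher one in each pair, yet the groups overlapped, since proliferating replicate 1 lay above neuron replicate 2. Proliferating cells averaged 33.1 ± 14.7 CPM, against 43.5 ± 10.4 CPM for neurons (SD, n = 2 per group). The log2 fold change was 0.39, with an SE of 0.51 and a 95% interval of -0.80 to 1.59 (edgeR adjusted p-value 0.9998). Leaving out proliferating replicate 1 gave an estimate of 0.91, and leaving out proliferating replicate 2 gave 0.02. The span of Gas5 shares 264 bases with Zbtb37 on the other strand. How reads in such shared stretches were counted is not given in the sources used here, so the level of Gas5 is uncertain to that extent.

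Snhg1 moved in opposite directions in the replicate pairs. It had 9.26 and 9.31 CPM in the proliferating libraries and 12.9 and 5.18 CPM in the neuron ones. The proliferating libraries were almost equal, and the neuron libraries lay on either side of them. Its log2 fold change was -0.03 with SE 0.57 (95% interval -1.36 to 1.30).

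Snhg5, the host of the Snord50 RNAs, had 17.5 and 13.2 CPM in the proliferating libraries and 14.7 and 13.4 CPM in the neuron ones. Both neuron values fell inside the range of the proliferating ones. The log2 fold change was -0.13 with SE 0.46 (95% interval -1.21 to 0.96).

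Zfas1, named for its place antisense to the zinc finger gene Znfx1, had 8.03 and 8.37 CPM in the proliferating libraries and 11.2 and 8.74 CPM in the neuron ones. Both neuron libraries lay above both proliferating ones, by a small margin in the replicate 2 pair. The log2 fold change was 0.29 with SE 0.47 (95% interval -0.81 to 1.38). The start of Znfx1 lies 81 bases from that of Zfas1 on the other strand and their spans share 82 bases. Znfx1 had 8.68 and 8.37 CPM in the proliferating libraries and 5.62 and 6.81 CPM in the neuron ones, a log2 fold change of -0.46 with SE 0.47 (edgeR adjusted p-value 0.9998). Znfx1 was thus the lower in both neuron libraries while Zfas1 was the higher, and neither gene was called.

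Snhg6, the host of Snord87, had the lowest count of the tested hosts. It had 18 and 11 counts in the proliferating libraries and 11 and 16 in the neuron ones, which is 1.47 and 1.48 CPM against 0.923 and 1.63 CPM. The groups overlapped, and the log2 fold change was -0.22 with SE 0.74 (95% interval -1.96 to 1.52). A stretch of 1582 bases of its 2094-base span lies inside that of Mcmdc2 on the other strand.

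Snhg14 carries the Snord115 and Snord116 clusters of the imprinted Prader-Willi region and runs antisense through Ube3a, which it is known to silence on the paternal allele in neurons. It had 61 and 11 counts in the proliferating libraries and 59 and 28 in the neuron ones. In CPM these were 5.00 and 1.48 against 4.95 and 2.85, so both replicate 1 libraries were above both replicate 2 libraries and the groups overlapped. The log2 fold change was 0.24 with SE 0.70 (95% interval -1.38 to 1.87). Its sign depended on the setting: it was 1.36 without proliferating replicate 1, -0.34 without proliferating replicate 2 and -0.18 with library size as the only scaling. Ube3a, which shares 38101 bases of span with it on the other strand, had 1061 and 133 counts in the proliferating libraries and 1047 and 740 in the neuron ones. Ube3a was low in proliferating replicate 2, the library in which Snhg14 was also lowest, and its log2 fold change was 0.63 with SE 0.71 (edgeR adjusted p-value 0.9998).

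Of the hosts of H/ACA box snoRNAs, Snhg8 had the smallest p-value of all members. It is the host of Snora24. Its level was 14.7 and 24.0 CPM in the proliferating libraries and 28.5 and 27.8 CPM in the neuron ones. The neuron libraries were alike and both lay above the proliferating ones. Proliferating cells averaged 19.3 ± 6.62 CPM, against 28.1 ± 0.542 CPM for neurons (SD, n = 2 per group). The log2 fold change was 0.54, with an SE of 0.47 and a 95% interval of -0.56 to 1.65, and the unadjusted p-value in edgeR was 0.287. Without proliferating replicate 1 the estimate was 0.20, and without proliferating replicate 2 it was 0.96, so the proliferating libraries set its size.

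Snhg3 carries Snora73a and Snora73b, H/ACA box RNAs that act in the cleavage of the ribosomal RNA precursor. It had 45 and 15 counts in the proliferating libraries and 22 and 28 in the neuron ones, or 3.69 and 2.02 CPM against 1.85 and 2.85 CPM. The highest and the lowest value were both in replicate 1 libraries, and the groups overlapped. The log2 fold change was -0.30 with SE 0.62 (95% interval -1.76 to 1.16). Snhg11 had 0 counts in both proliferating replicates and 1 in each neuron replicate. A count of 0 allows up to 3 counts, which is 0.246 CPM in proliferating replicate 1 and 0.405 CPM in proliferating replicate 2, so no difference could be seen at this depth.

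Snhg12 carries both kinds, with Snord99 and the H/ACA RNAs Snora16a, Snora44 and Snora61. It had 8.44 and 13.5 CPM in the proliferating libraries and 6.04 and 10.8 CPM in the neuron ones. The neuron library was the lower in each pair, and the replicate 2 libraries were above the replicate 1 libraries. Its log2 fold change was -0.38 with SE 0.54 (95% interval -1.64 to 0.88). It was 0.01 without proliferating replicate 2 and -0.86 without neuron replicate 2.

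Within pairs, 3 of the 9 tested hosts were higher in the neuron library both times (Gas5, Snhg8 and Zfas1), 1 was lower both times (Snhg12) and 5 went opposite ways. Over all tested genes the shares were 28.8% higher, 25.5% lower and 45.7% opposite, so the hosts' counts lay near the background. The groups did not overlap for 2 hosts with higher values in neurons (Snhg8 and Zfas1), against 12.9% of all genes, and for 0 hosts with lower values, against 14.5%. These directions depended on scaling. With library size alone, which moved the median of all genes from 0 to -0.37 in the replicate 1 pair, Snhg8 was the 1 host higher in both pairs, and Snhg5 and Snhg12 were lower in both. Snhg12 was then the 1 host whose groups did not overlap. With RLE size factors, Snhg14 joined Gas5, Snhg8 and Zfas1, and Snhg5 joined Snhg12.

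Counting error bounds each pair by itself. In the replicate 1 pair the 95% exact counting interval of the fold left out 1 for 6 hosts (Gas5, Snhg1, Snhg3, Snhg8, Snhg12 and Zfas1), and in the replicate 2 pair for 2 (Gas5 and Snhg1). With TMM scaling, Gas5 was the 1 host with a difference beyond counting error in the same direction both times. With library size alone its log2 differences were -0.15 and 0.60, in opposite directions. Its neuron library was 1.17-fold higher in the replicate 1 pair (1.04 to 1.32), compared with 1.60-fold in the other pair (1.32 to 1.93). For Snhg1 the folds were 1.40 (1.09 to 1.79) and 0.557 (0.380 to 0.811), in opposite directions. Snhg8 had a fold of 1.94 (1.62 to 2.34) in the replicate 1 pair, compared with 1.16 (0.953 to 1.40) in the other pair. Replicates of one group differed as much: the interval of replicate 1 over replicate 2 left out 1 for 5 hosts in proliferating cells and for 4 in neurons. Gas5 was 1.91-fold higher in proliferating replicate 1 than in proliferating replicate 2 (1.61 to 2.29), more than it differed between the groups in either pair. These intervals cover counting error only, and reads without molecular identifiers are not independent molecules. The share of all tested genes whose interval left out 1 was not computed, so these counts of hosts have no background beside them.

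**Figure D2:**
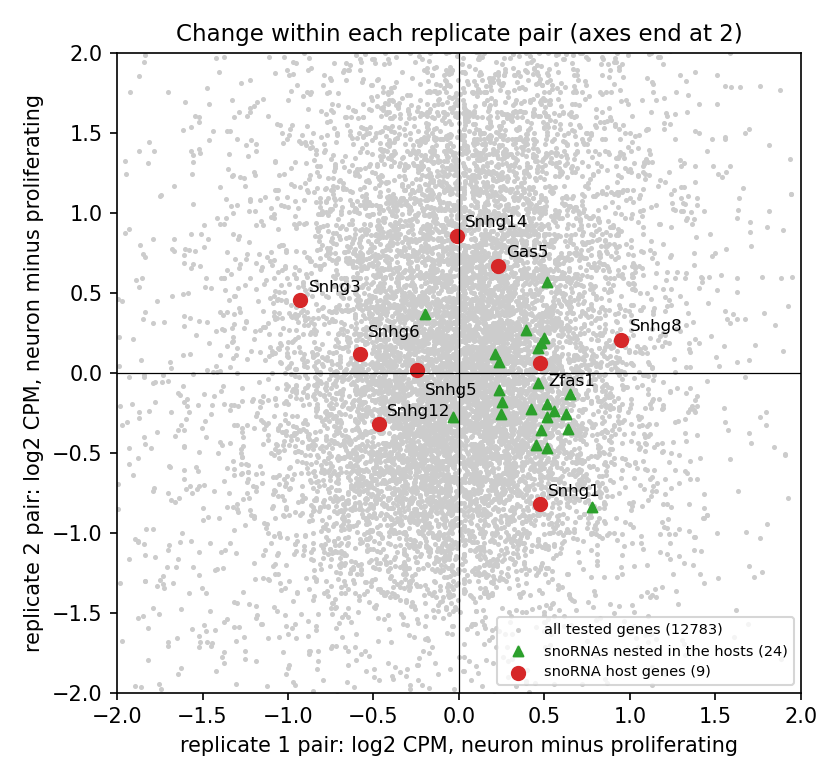
Difference of log2 CPM, neuron minus proliferating, in the replicate 1 pair (x axis) and the replicate 2 pair (y axis), for the 9 tested hosts (red), the 24 tested snoRNAs nested in them (green) and all 12783 tested genes (grey; genes beyond 2 on either axis are not drawn). The hosts spread over all 4 quadrants. Of the 24 nested snoRNAs, 22 lie to the right of 0, the median of all tested genes on that axis. In the replicate 2 pair 16 of the 24 lie below 0, and several of them share a host.

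Per length, in the authors' RPKM, Snhg8 ranked highest of the 10 members in 3 libraries, with 45.7 RPKM in neuron replicate 1, 21.8 in proliferating replicate 2 and 24.0 in neuron replicate 2. In proliferating replicate 1 Snhg1 (31.9 RPKM) and Snhg8 (30.6 RPKM) were close. The lower end of the order was the same in every library: Snhg3, Snhg6, Snhg14 and Snhg11 held ranks 7 to 10. In between, Gas5, Snhg1, Snhg5, Snhg12 and Zfas1 changed places from library to library, so their order is not resolved by 2 replicates. Gas5 ranked 4 to 6 although it held 23.6% to 39.0% of all counts of the members. The RPKM values imply a length of 3343 bases for Gas5, of a span of 3939 bases with 8 RefSeq transcripts, and 437 bases for Snhg3. RPKM levels also carry the 18S share: the members summed to 172.9 and 157.4 RPKM in the replicate 1 libraries and 80.0 and 75.1 RPKM in the replicate 2 libraries.

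In 5 hosts (Gas5, Snhg1, Snhg3, Snhg12 and Zfas1) the nested snoRNAs held at least 137.5 counts per host count in every library, and in Snhg14 at most 9.27. The nested rows of the other 4 hosts were listed at 0. In Gas5 the nested rows summed to 72887 and 57385 counts in the proliferating libraries and 97165 and 84508 in the neuron ones. That is 137.5 and 341.6 nested counts per host count in proliferating cells and 160.3 and 237.4 in neurons. Per host count, the nested rows of Snhg1 gave 476.6 and 656.8 in proliferating cells and 477.3 and 993.5 in neurons. Snhg3 gave 524.1 and 1270 against 1127 and 874.6, Snhg12 gave 197.1 and 178.6 against 365.4 and 185.9, and Zfas1 gave 152.9 and 221.0 against 155.7 and 173.0. Snhg14 stood apart with 2.64 and 9.27 against 3.10 and 6.21. In each of these 6 hosts the ratios of the groups overlapped. Host rows differ in length (24206 bases implied for Snhg14, 437 for Snhg3), so ratios of counts do not rank the hosts. Per length, the mean RPKM of the nested rows was divided by the RPKM of the host. Gas5 then had 767.6 and 1932 in proliferating cells and 901.4 and 1320 in neurons. The lowest value of the 5 hosts was 360.2 (Snhg12, proliferating replicate 2), and Snhg14 had 5.96 and 22.5 against 7.59 and 14.5.

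**Figure D3:**
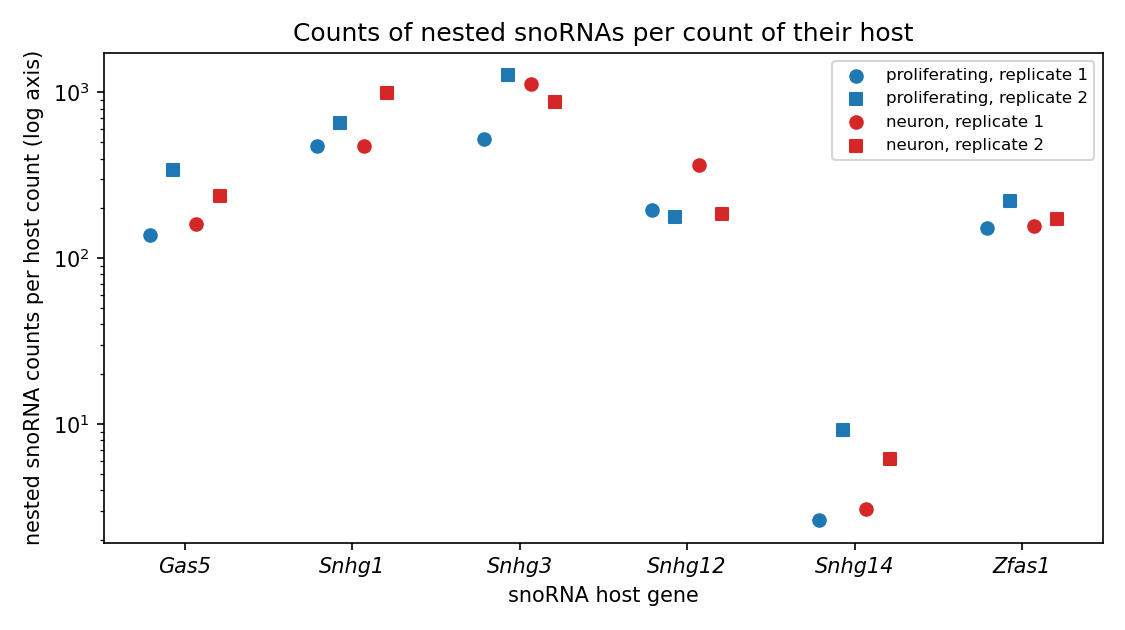
Summed counts of the snoRNAs nested in a host divided by the count of the host, per library, on a log axis (blue proliferating, red neuron, circles replicate 1, squares replicate 2). The ratio lies between 137.5 and 1270 in 5 hosts and between 2.64 and 9.27 in Snhg14, and the groups overlap in all 6. Host rows differ in length, and the ratio is not adjusted for it.

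The nested rows varied less between libraries than the host rows in 5 of these 6 hosts. A host row is not known to hold spliced RNA alone. For Gas5 the RPKM implies 3343 bases of a 3939-base span. The ratio of the highest to the lowest CPM over the 4 libraries was 1.44 for the nested rows of Gas5 and 2.24 for Gas5 itself. For Snhg1 the ratios were 1.40 for the nested rows and 2.49 for the host, and for Snhg14 they were 1.34 and 3.37. Snhg3 and Snhg12 showed the same order, while for Zfas1 the nested rows had 1.51 and the host 1.40. The hosts had fewer counts than the nested rows, and the part of counting error was not tested. A host and its nested sum differed in direction for 3 of the 6 hosts in the replicate 1 pair and for 2 in the other pair. On the log2 scale Snhg3 had -0.93 and 0.45 in the pairs, against 0.11 and -0.047 for its nested sum. Snhg12 had -0.47 and -0.32, against 0.41 and -0.27, so only its replicate 1 pair differed in direction. Snhg14 had -0.014 and 0.86, against 0.22 and 0.36. Zfas1 had 0.48 and 0.06, against 0.51 and -0.29. Gas5 and Snhg1 had the same direction as their nested sums in both pairs.

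None of the 24 nested snoRNAs that passed the filter was called in edgeR (0 with an unadjusted p-value under 0.05), and their median log2 fold change was 0.12. In the replicate 1 pair 22 of 24 were higher in the neuron library, with a median of 0.47, and in the replicate 2 pair 16 of 24 were lower, with a median of -0.19. Opposite directions were thus seen for 16 of 24, 7 were higher in both pairs and 1 was lower in both. For all tested genes the pair medians were 0 and 0.07, with 45.7% opposite, 28.8% higher in both and 25.5% lower in both. Several of the 24 rows share a host, so they are not separate observations. With library size alone the median of all genes in the replicate 1 pair was -0.37. The directions of the nested rows were not computed with that scaling.

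Within a host, snoRNAs from one precursor differed widely. In proliferating replicate 1 the rows nested in Gas5 ranged from 433 counts for LOC115487677 (Snord78 in GENCODE) to 49395 for LOC115487643. The same rows had 314 and 56782 counts in neuron replicate 2, and these remained the lowest and the highest of the 5 rows with counts in both other libraries. The 8 rows in Snhg1 ranged from 2745 to 15446 counts in proliferating replicate 1, with LOC115489081 the highest there.

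Several nested rows were listed at 0 in all 4 libraries. Outside Snhg14 these were 9 of 31 rows: 3 in Gas5, both in Snhg5, both in Snhg11, and those in Snhg6 (Snord87) and Snhg8 (Snora24). Snord87 lies within the span of Mcmdc2. The 72-base sequences of Snord50a and Snord50b, in Snhg5, differ at 1 base. The 205-base sequences of Snora73a and Snora73b, in Snhg3, differ at 7 bases, and these rows had 53564 and 38344 counts over the 4 libraries. Snora24 touches an exon of Snhg8 in GENCODE M21, as do 7 of the 9 rows at 0, but so do 21 of the 22 rows with counts. These values stand beside the zeros, and their part in them was not tested. A listed 0 in these rows is not read as an absent RNA. The sequences of 3 of them are printed, the Snord50 RNAs for their likeness and Snora24 for its place in an exon, with capitals as above.
LOC115487269, Snord50a in GENCODE, in Snhg5 (chr9:88521529-88521600, minus strand): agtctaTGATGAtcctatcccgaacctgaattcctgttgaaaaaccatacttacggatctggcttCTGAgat
LOC115487267, Snord50b in GENCODE, in Snhg5 (chr9:88521797-88521868, minus strand): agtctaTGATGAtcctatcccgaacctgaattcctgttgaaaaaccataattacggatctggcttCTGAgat
Snora24, in Snhg8 (chr3:123507937-123508066, minus strand): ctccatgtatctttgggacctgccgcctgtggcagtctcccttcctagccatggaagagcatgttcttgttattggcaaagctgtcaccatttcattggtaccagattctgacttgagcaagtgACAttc

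**Figure D4:**
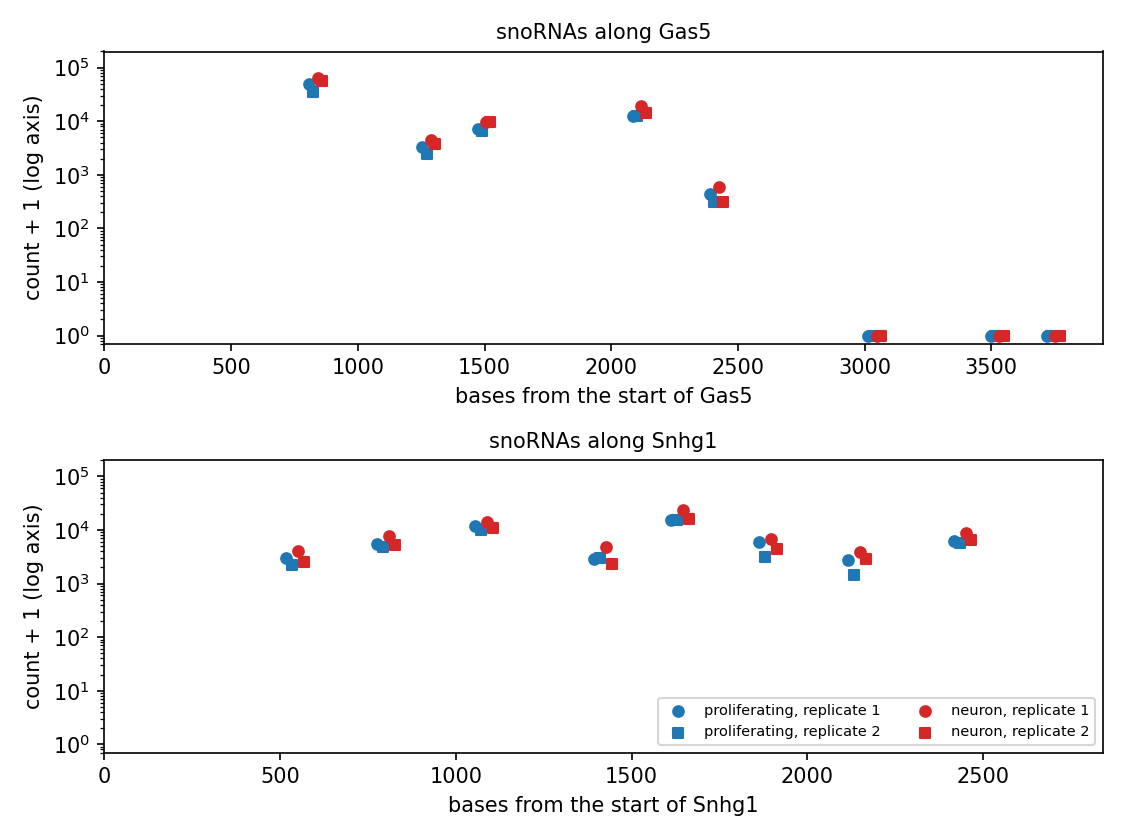
Counts (plus 1, log axis) of the snoRNA rows nested in Gas5 and Snhg1 against their distance from the start of the host in bases, per library (colours and shapes as in the plot of levels). In Gas5 3 rows are at 0 in every library, and the other 5 rows and all 8 of Snhg1 have at least 303 counts.

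Genes that work with these hosts did not differ detectably either. For comparison, 28.8% of all tested genes were higher in both pairs, 25.5% lower in both and 45.7% opposite. Their median log2 fold change was 0.02, and their pair medians were 0 and 0.07. Of 12 other noncoding hosts, 9 were tested and 0 were called in edgeR, with 3 higher and 2 lower in both pairs and a median log2 fold change of 0.18. Snhg18 and Rian were listed at 0 in all libraries. Snhg4, with 110 and 33 counts in the proliferating libraries and 156 and 58 in the neuron ones, had the smallest p-value of that list. Its log2 fold change was 0.49 with SE 0.60 (edgeR adjusted p-value 0.9998). The 27 protein-coding hosts, most of them ribosomal proteins and translation factors, were all tested with 0 called. Of them 22 went opposite ways in the pairs, with medians of 0.29 for replicate 1 and -0.26 for replicate 2. Nop56, a host gene whose protein is itself a core part of C/D box particles, had 380 and 456 counts in the proliferating libraries and 472 and 240 in the neuron ones. All 18 genes of snoRNA particles and their assembly were tested with 0 called, 3 higher and 8 lower in both pairs, and a median of -0.30. The smallest p-value there was that of Snu13, a protein that binds the C/D box fold, with 31 and 26 counts in the proliferating libraries and 20 and 9 in the neuron ones. The estimate for Snu13 was -1.20 on the log2 scale, SE 0.66 (edgeR adjusted p-value 0.9998). Of 14 tested factors of nonsense-mediated decay 0 were called, 3 were higher and 4 lower in both pairs, and the median was -0.15. Upf1, the helicase of that pathway, had 524 and 611 counts in the proliferating libraries and 423 and 330 in the neuron ones, a log2 fold change of -0.86 with SE 0.50 (edgeR adjusted p-value 0.9998). No gene of these 4 lists had an unadjusted p-value under 0.05 in edgeR, with or without the replicate block.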

How the data were processed

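Stranded RNA libraries (Takara SMARTer kit after depletion of ribosomal RNA, paired reads of 150 bases, per the labels' protocols) gave a raw count and an RPKM value per gene, as deposited by the authors. The submitters' processing notes name HISAT2, SAMtools, featureCounts, DESeq2, deepTools 3.4.3 and mm10. The annotation, the strand setting and the treatment of reads with several matches are not given in the sources used here. RPKM equals the deposited count per total, 18S row included, and per one length per gene.

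The main test was edgeR 4.0.16 (R 4.3.3) on the counts of all 4 libraries, with TMM factors, filterByExpr (minimum count 10, total 15), glmQLFit and glmQLFTest with group as the term, two-sided, with Benjamini-Hochberg adjustment over 12783 genes and a threshold of 0.05. Log2 differences within pairs use a prior count of 2, except those of the nested sums, which use no prior count. SD is over 2 libraries. P-values measure the spread between these libraries. The method was tested on simulated data. With the spread of these data, 0% of simulated 2-fold changes and 57% of 8-fold changes were called. A host without a call may thus still differ 2-fold. Alternatives used DESeq2 1.42.0, limma 3.58.1 and other settings. Both replicate 2 titles carry the words set 2, which was taken to pair same-numbered libraries, although what a set is was not stated. Deviations of same-numbered libraries from the group means correlated across genes with r = 0.33.

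Members and lists were chosen with earlier results of these data known. All members are named. From the other lists, the genes named are among the 3 tested genes with the smallest p-values of their list, or are genes listed at 0. Neighbours were named for an opposite start within 1000 bases of a member's start (Zbtb37, Znfx1) or, after their values were seen, for shared span. For nested snoRNAs, the row with the most counts per host is named, and rows at 0 or at the ends of a range were named after their values were seen. Overlaps and lengths use RefSeq (GRCm38.p6), which had an entry for 49997 of 49997 symbols, and strand is from GENCODE M21. Python 3.11.15 was used for the remaining values. One neighbouring gene is not reported here.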

Additional observations from a re-analysis of the deposited data

How the results depend on the processing

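Counts of called hosts were 0 under all 13 alternatives. Among all genes, 0 were called higher and 0 lower, as with RLE size factors, a mean count of at least 50 and the 18S row left out. DESeq2 called 12 higher and 47 lower, no gene filter 41 and 122. Calls were all lower with the replicate block (3), library size alone (2), log2(RPKM + 1) (1) and log2(RPKM + 0.1) (2). Leaving out a library gave 3 to 33 higher and 11 to 90 lower, with a lone library assumed to vary like the other group.

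The median of the hosts (-0.03) was -0.18 with library size alone, which moved the median of all genes to -0.27. It was -0.33 on log2(RPKM + 1), -0.34 on log2(RPKM + 0.1), 0.14 with a mean count of at least 50 (6 hosts), 0.13 without a filter (10 hosts, Snhg11 included) and -0.046 to 0.455 when a library was left out. The block gave -0.12 and changed no call of a host; among the listed genes it added 1 call, the glial Gfap.

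Of 114 fold changes of single hosts under alternatives, 105 kept their sign and 9 reversed. Snhg14 was -0.18 with library size alone and -0.021 on log2(RPKM + 1). The other 7 came from leaving out a library, with ranges of -0.88 to 0.48 for Snhg1, -0.64 to 0.17 for Snhg3, -0.29 to 0.055 for Snhg5, -0.67 to 0.10 for Snhg6, -0.86 to 0.011 for Snhg12 and -0.34 to 1.36 for Snhg14 (below 0 without neuron replicate 1, too, at -0.23). The cause was not tested. Snhg6, with 11 to 18 counts, and Snhg11, with 0 or 1, are limited by depth.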

Other observations

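In the Snhg14 locus, 190 of 206 nested snoRNA rows were listed at 0 in all 4 libraries, and 16 had at least 1 count. Snord64 had most of them, with 116 and 89 counts in the proliferating libraries and 161 and 138 in the neuron ones. The protein-coding genes Snrpn and Snurf and the noncoding Ipw, which share span with Snhg14, were listed at 0 in all 4 libraries. These genes were named after their values were seen, and the cause of the zeros was not tested.

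Over all 1340 RefSeq snoRNA genes, 937 (69.9%) were listed at 0 in all 4 libraries. The share was 55.8% of the 776 that lie in the span of exactly 1 other gene and 66.7% of the 30 that lie in the spans of 2 or more. The rows nested in Snhg14 are among these genes, and the shares without them were not computed.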
